A study of Homo sapiens with 12 samples.

Results

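AXL, MERTK and TYRO3, the receptor tyrosine kinases of the TAM family, and the ligands GAS6 and PROS1 were measured by RNA-seq in rhabdomyosarcoma cell lines that carried an shRNA against the histone demethylase KDM3A or a scrambled control shRNA. The 5 genes were taken by their symbols from the deposited expression table, in which each symbol was listed once, and are 5 of 65975 gene identifiers. RD is a line of fusion-negative rhabdomyosarcoma, and Rh30 is a line of fusion-positive rhabdomyosarcoma, which carries a PAX3-FOXO1 fusion. RD cells were grown in DMEM and Rh30 cells in RPMI, both were transduced with lentivirus and selected with puromycin, and each of the 4 groups, RD Scramble, RD KDM3A-sh2, Rh30 Scramble and Rh30 KDM3A-sh2, held 3 libraries. Each line is 1 cell line, so that a difference between RD and Rh30 cannot be told apart from a difference between their media. KDM3A-sh2 was the only shRNA against KDM3A in these libraries, so that lower KDM3A and any other effect of this hairpin cannot be told apart.

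TAM receptors sit in the plasma membrane and signal through an intracellular tyrosine kinase domain. GAS6 and PROS1, the latter better known as the anticoagulant protein S, carry vitamin K-dependent carboxylated residues at one end that bind phosphatidylserine on dying cells or vesicles, and laminin G-like domains at the other end that bind the receptors. GAS6 binds all TAM receptors and is the ligand of AXL, whereas PROS1 acts on TYRO3 and MERTK. MERTK is best known for the uptake of dying cells by macrophages, TYRO3 for its expression in the nervous system, and AXL for its expression in mesenchymal cells and in invasive or drug-resistant tumour cells.

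Values are FPKM (fragments per kilobase of transcript, scaled to the mapped reads of each library), so that levels can be set side by side between genes. The libraries summed to between 1198300 and 1379197 FPKM, and between 17473 and 17983 genes reached 1 FPKM in a library. Read depth is unknown. Of the muscle lineage markers, 7 of 8 reached 1 FPKM in every group, and the missing one was MYF5. All 8 markers of fusion-positive rhabdomyosarcoma reached 1 FPKM in Rh30 and 5 of 8 in RD. Of 10 macrophage and leukocyte markers, none reached 1 FPKM in Rh30, and CD68 was the only one to do so in RD. Log2 fold changes are differences of mean log2(FPKM + 1), and adjusted p-values are those of limma with Benjamini-Hochberg adjustment over all genes tested, called under 0.05. KDM3A itself fell from 33.5 ± 2.50 to 12.2 ± 1.10 FPKM in RD (SD, n = 3; log2 fold change -1.39, adjusted p = 5e-05) and from 29.7 ± 2.14 to 14.1 ± 1.15 FPKM in Rh30 (log2 fold change -1.02, adjusted p = 0.000348).

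The promoters of AXL and TYRO3 are shown because these receptors carried the changes described next, AXL in Rh30 and TYRO3 in RD. Each window runs from 250 bases before to 50 bases after a RefSeq transcription start (GRCh38.p14), 5′ to 3′ on the strand of the gene, and capitals mark the GC box GGGCGG on either strand, the core of the site bound by SP1-type factors.
AXL, chr19:41218973-41219272, plus strand: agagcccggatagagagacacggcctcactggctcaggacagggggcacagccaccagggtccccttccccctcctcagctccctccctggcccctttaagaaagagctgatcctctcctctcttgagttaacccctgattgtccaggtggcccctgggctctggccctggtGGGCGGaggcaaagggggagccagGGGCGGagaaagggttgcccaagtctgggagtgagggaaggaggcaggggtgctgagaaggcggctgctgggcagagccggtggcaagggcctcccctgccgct
TYRO3, chr15:41558962-41559261, plus strand: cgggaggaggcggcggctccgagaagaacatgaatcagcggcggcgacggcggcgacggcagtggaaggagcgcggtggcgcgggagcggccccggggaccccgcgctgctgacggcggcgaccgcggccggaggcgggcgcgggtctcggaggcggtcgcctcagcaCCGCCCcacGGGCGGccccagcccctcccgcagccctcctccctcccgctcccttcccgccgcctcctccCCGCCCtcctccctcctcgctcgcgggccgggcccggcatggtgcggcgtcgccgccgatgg
The AXL window holds 2 GC boxes and the TYRO3 window 3, and 45.0% of all 35116 RefSeq windows of this length hold at least 1. The main windows of MERTK, GAS6 and PROS1 hold 5, 3 and 2. RefSeq gives AXL and TYRO3 a second start each, and those windows hold none. The ETS core GGAAG, present in 71.9% of all windows, occurs 2 times in the main window of AXL, 2 times in that of TYRO3, 2 times in that of MERTK and 4 times in that of PROS1. GGAATG, the word bound by TEAD factors (14% of all windows), occurs 1 time among the members, in the second AXL window. The pattern TGANTCA, with N for any base (7.71% of all windows), is looser than the AP-1 site TGA(C or G)TCA. It occurs 1 time, in the main TYRO3 window, where it reads TGAATCA and so is not that site. Both strands were searched for each word. Such matches describe the letters only, and binding was not measured here.

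AXL was the most abundant TAM receptor in the RD groups and in Rh30 Scramble, and it was the only receptor called lower in Rh30. The gene (ENSG00000167601) lies on chromosome 19 of GRCh38 from 41219203 to 41261766 on the plus strand, and an antisense gene that overlaps its exons reached at most 0.521 FPKM. In the Rh30 Scramble libraries AXL was at 80.6, 78.4 and 78.4 FPKM, and in the Rh30 KDM3A-sh2 libraries at 27.8, 24.0 and 27.4 FPKM. The 3 knockdown libraries all lay far below the 3 controls, with no overlap. The mean fell from 79.1 ± 1.25 to 26.4 ± 2.13 FPKM, which is 33.4% of the Scramble level (log2 fold change -1.55, SE 0.063, adjusted p = 5.41e-05, 95% interval -1.70 to -1.40). In the sources the names of the 3 Rh30 Scramble libraries end in the same number, whereas those of the other groups end in 1 to 3, and it is not stated whether these libraries share a culture, so that their small SD may be technical. In bulk RNA, fewer cells that express a gene and less of its RNA per cell cannot be told apart.

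In RD cells AXL was at 114.6, 110.6 and 122.4 FPKM with Scramble and at 120.2, 114.7 and 106.9 FPKM with KDM3A-sh2. These libraries overlapped, and neither group stood above the other. The means were 115.8 ± 6.00 and 113.9 ± 6.69 FPKM, and the 95% interval of the log2 fold change reached from -0.16 to 0.11 (estimate -0.024, adjusted p = 0.764). The change in Rh30 minus the change in RD was -1.53 on the log2 scale (SE 0.088, adjusted p = 1.2e-06). With Scramble, AXL was lower in Rh30 than in RD, at 68.3% of the RD level (log2 difference -0.54, SE 0.047, adjusted p = 3.61e-05). In order, the 2 RD groups stood highest with overlapping libraries, Rh30 Scramble followed, and Rh30 KDM3A-sh2 was lowest.

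**Figure D1:**
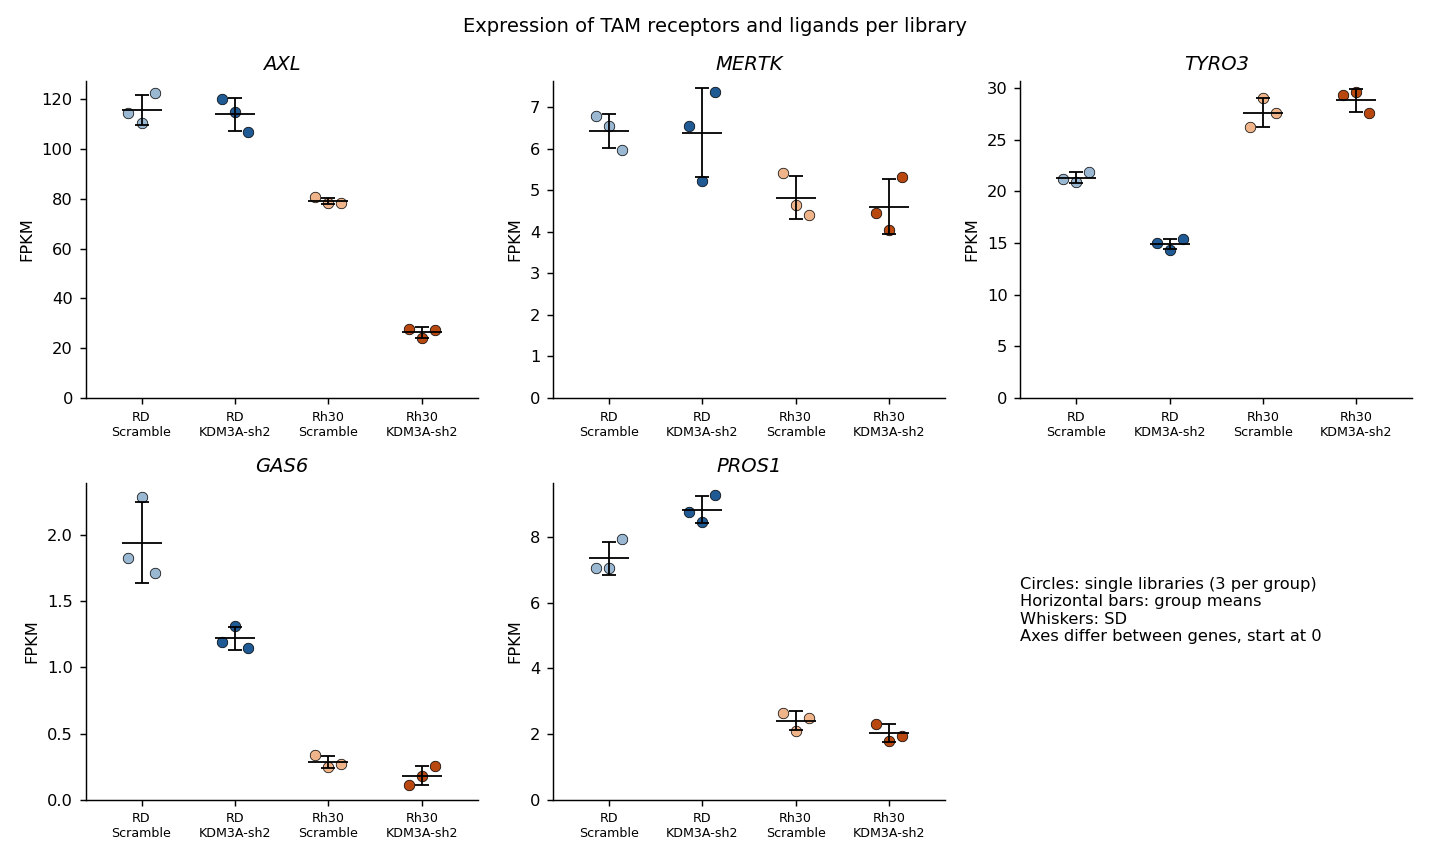
FPKM of the 5 genes in each of the 12 libraries, with 1 panel per gene and separate vertical axes that start at 0. Circles are libraries, horizontal bars are group means and whiskers are SD (n = 3). AXL drops between the Rh30 groups from 79.1 to 26.4 FPKM, and TYRO3 drops between the RD groups from 21.3 to 14.9 FPKM.

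TYRO3 showed the opposite arrangement, with a fall in RD and none detected in Rh30. The gene (ENSG00000092445) lies on chromosome 15 from 41557675 to 41583586 on the plus strand. In RD it was at 21.16, 20.91 and 21.88 FPKM with Scramble and at 15.01, 14.35 and 15.34 FPKM with KDM3A-sh2, and the groups did not overlap. The mean fell from 21.3 ± 0.508 to 14.9 ± 0.506 FPKM, to 69.9% of the control (log2 fold change -0.49, SE 0.052, adjusted p = 0.000501). In Rh30, TYRO3 was at 26.21, 29.01 and 27.60 FPKM with Scramble and at 29.27, 29.57 and 27.54 FPKM with KDM3A-sh2. These overlapped, with a log2 fold change of 0.059 (adjusted p = 0.473, 95% interval -0.07 to 0.19). The change in Rh30 minus the change in RD was 0.55 (SE 0.071, adjusted p = 0.000242), of opposite sign to that of AXL. TYRO3 was the only member that was higher in Rh30 than in RD with Scramble (log2 difference 0.36, SE 0.056, adjusted p = 0.000867).

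A processed pseudogene of TYRO3, TYRO3P (chromosome 15, 76258986 to 76261690, minus strand), was listed with expression of its own. TYRO3P fell in RD from 3.89 ± 0.0484 to 2.33 ± 0.466 FPKM (log2 fold change -0.56, SE 0.13, adjusted p = 0.0123). In Rh30 it was at 4.33 ± 0.460 and 4.27 ± 0.389 FPKM (log2 fold change -0.016, adjusted p = 0.925). Of the 50-base windows of the TYRO3P transcript, 7.34% match TYRO3 exactly, and of 151-base windows 0%. Of the 50-base windows of the longest TYRO3 transcript, 2.30% match TYRO3P. How the alignment divided reads between the genes was not tested, so the level of TYRO3P is uncertain.

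MERTK was expressed at a low level in all groups and showed no detectable change with KDM3A-sh2 in either line. The gene (ENSG00000153208) lies on chromosome 2 from 111898479 to 112029561 on the plus strand. RD libraries gave 6.78, 6.53 and 5.97 FPKM with Scramble and 6.55, 5.23 and 7.36 FPKM with KDM3A-sh2. Rh30 libraries gave 5.41, 4.64 and 4.41 FPKM with Scramble and 4.44, 4.04 and 5.33 FPKM with KDM3A-sh2. In both lines the groups overlapped. The log2 fold change was -0.019 in RD (adjusted p = 0.917, 95% interval -0.31 to 0.27) and -0.058 in Rh30 (adjusted p = 0.747, 95% interval -0.34 to 0.23). As folds of FPKM + 1, the RD interval spans 0.81 to 1.20 and the Rh30 interval 0.79 to 1.17, and they are wider than those of AXL and TYRO3. With Scramble, MERTK was lower in Rh30 than in RD (log2 difference -0.35, SE 0.10, adjusted p = 0.0123). A processed pseudogene on the opposite strand, AC104651.2, lies within MERTK without touching an annotated exon and was at 22.2 to 36.5 FPKM in the 12 libraries, above MERTK itself.

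**Figure D2:**
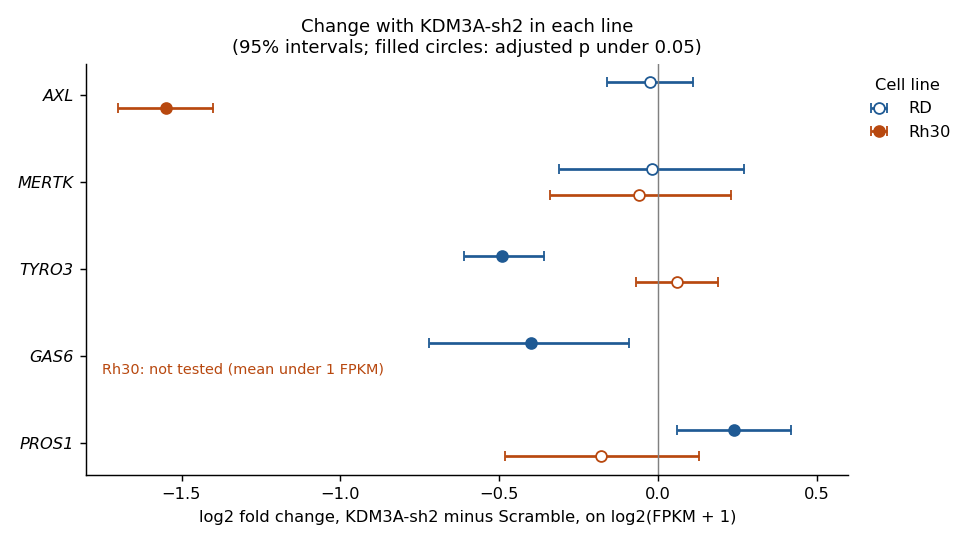
Log2 fold change (KDM3A-sh2 minus Scramble, on log2(FPKM + 1)) of the 5 genes, with blue for RD and orange for Rh30, 95% intervals as whiskers and filled circles for an adjusted p under 0.05. The interval of AXL in Rh30, from -1.70 to -1.40, lies far from that in RD, from -0.16 to 0.11, and GAS6 in Rh30 was not tested.

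GAS6 was the less abundant ligand in every library and had its lowest values in Rh30. The gene (ENSG00000183087) lies on chromosome 13 from 113820549 to 113864067 on the minus strand. In RD it was at 1.83, 2.29 and 1.71 FPKM with Scramble and at 1.19, 1.32 and 1.15 FPKM with KDM3A-sh2, and all 3 knockdown libraries lay below the controls. The mean fell from 1.94 ± 0.304 to 1.22 ± 0.0861 FPKM (log2 fold change -0.40, SE 0.13, adjusted p = 0.0472). This call held in 4 of 14 alternative analyses and was lost when any 1 of the 6 libraries was left out (log2 fold changes -0.46 to -0.32, adjusted p 0.0621 to 0.142). In Rh30, GAS6 was at 0.338, 0.245 and 0.270 FPKM with Scramble and at 0.112, 0.179 and 0.254 FPKM with KDM3A-sh2. These groups overlapped and lay under the 1 FPKM mean required for a test. Without that filter the log2 fold change in Rh30 was -0.12 (adjusted p = 0.265), and the change in Rh30 minus the change in RD was 0.28 (adjusted p = 0.173). With Scramble, GAS6 was at 14.6% of its RD level in Rh30 (log2 difference -1.19 on log2(FPKM + 1), SE 0.13, adjusted p = 0.000118). The transcripts listed as GAS6-AS1 and GAS6-AS2 reached at most 0.139 and 0.303 FPKM.

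PROS1 was the more abundant ligand and rose in RD with KDM3A-sh2. The gene (ENSG00000184500) lies on chromosome 3 from 93873033 to 93980003 on the minus strand. RD libraries gave 7.07, 7.05 and 7.94 FPKM with Scramble and 8.78, 8.46 and 9.28 FPKM with KDM3A-sh2, without overlap. The mean rose from 7.35 ± 0.511 to 8.84 ± 0.412 FPKM (log2 fold change 0.24, SE 0.077, adjusted p = 0.045). The call held in 5 of 14 alternatives, and of the 6 analyses that left out 1 library it held only without RD Scramble replicate 3 (log2 fold change 0.29, adjusted p = 0.0369), against 0.21 to 0.26 with adjusted p of 0.0694 to 0.127 without any of the others. In Rh30 the libraries were at 2.66, 2.10 and 2.48 FPKM with Scramble and at 2.32, 1.78 and 1.96 FPKM with KDM3A-sh2, with overlap. The log2 fold change there was -0.18 (adjusted p = 0.351, 95% interval -0.48 to 0.13). The change in Rh30 minus the change in RD was -0.41 (SE 0.13, adjusted p = 0.0372), and it passed the threshold in 8 of 19 alternatives. With Scramble, PROS1 in Rh30 was at 32.8% of its RD level (log2 difference -1.29, SE 0.10, adjusted p = 1.97e-05). Its pseudogene PROS2P reached at most 0.220 FPKM.

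Across the 5 members, PROS1 was higher and TYRO3 and GAS6 were lower in RD with KDM3A-sh2, where 21.6% of all 17988 genes tested were higher and 19.5% lower. In Rh30, 4 members were tested and AXL was lower, where 15.3% of all 17803 genes tested were higher and 13.2% lower. For the difference between the lines, TYRO3 was called higher and AXL and PROS1 lower among 4 tested members, against 14.4% higher and 13.4% lower of 18517 genes. Between the Scramble groups, AXL, MERTK, GAS6 and PROS1 were lower in Rh30 and TYRO3 was higher, where 39.6% of 18357 genes were lower and 35.0% higher, so that a call between the lines was the common outcome for any gene.

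Marker sums differed between the shRNA groups too. The summed FPKM of the 8 muscle markers was 2405 to 2659 in RD Scramble and 2808 to 2934 in RD KDM3A-sh2, and 2588 to 2850 and 2986 to 3005 in the Rh30 groups. The single markers went different ways. In RD the group mean of CHRNA1 was 1074 and 1436 FPKM and that of DES 796 and 932 FPKM, Scramble first, whereas MYOD1, MYOG, CDH15, MYH3 and MYL4 had lower means with KDM3A-sh2. In Rh30 the means of MYOD1, MYOG and MYL4 were higher, and those of DES, CHRNA1, CDH15 and MYH3 lower. The 8 markers of fusion-positive rhabdomyosarcoma summed to 582 to 646 and 717 to 731 FPKM in the RD groups and to 1911 to 2084 and 2578 to 2637 FPKM in the Rh30 groups. Most of each sum was ASS1, with means of 488 and 623 FPKM in RD and 1231 and 1854 FPKM in Rh30. FGFR4 went the other way, at 115 and 89.5 FPKM in RD and 522 and 442 FPKM in Rh30. In RD the means of ALK were 1.82 and 1.78 FPKM, those of PIPOX 1.76 and 2.68 FPKM and those of ABAT 7.28 and 8.58 FPKM. OLIG2, NOS1 and TFAP2B averaged at most 0.0672 FPKM in the RD groups, so no direction is read from them. In Rh30 only FGFR4 had a lower mean. In RD the 10 macrophage and leukocyte markers summed to 16.0 to 17.8 FPKM with Scramble and 23.2 to 25.4 FPKM with KDM3A-sh2, almost all of it CD68, with CD163 and CD3E listed at 0 in every RD library. The 8 endothelial markers summed to 26.0 to 27.8 and 15.1 to 18.0 FPKM in the RD groups, with TIE1 at 18.5 and 9.26 FPKM, and the epithelial markers to 56.2 to 62.0 and 53.6 to 54.8 FPKM. In Rh30 the leukocyte markers summed to at most 2.26 FPKM, the endothelial markers to 6.08 to 7.49 FPKM with Scramble and 5.50 to 6.02 FPKM with KDM3A-sh2, and the epithelial markers to 13.1 to 14.5 and 12.2 to 14.4 FPKM. The part of these shifts in the member results was not tested.

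The receptor mix differed between the Rh30 groups in every library. AXL made up 71.8%, 70.0% and 71.0% of the summed FPKM of the 3 receptors in Rh30 Scramble and 45.2%, 41.6% and 45.5% in Rh30 KDM3A-sh2. The mean share was lower by 26.8 percentage points (-26.8; 70.9% ± 0.924 and 44.1% ± 2.16, two-sided exact permutation test, p = 0.1, the smallest p that 3 against 3 libraries allow). TYRO3 took up 24.7% ± 1.28 of the sum with Scramble and 48.2% ± 2.89 with KDM3A-sh2, although its own level was not detectably different. AXL was at 2.87 ± 0.188 times the level of TYRO3 in Rh30 Scramble, and at 0.951, 0.810 and 0.995 times in the 3 Rh30 KDM3A-sh2 libraries, the only libraries in which TYRO3 exceeded AXL. The summed receptors were at 112 ± 0.983 and 59.8 ± 2.03 FPKM in the Rh30 groups.

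In RD the AXL share was 80.4%, 80.1% and 81.5% with Scramble and 84.8%, 85.4% and 82.5% with KDM3A-sh2, a difference of 3.57 percentage points in the other direction (exact permutation test, p = 0.1). The TYRO3 share was 14.9% ± 0.291 and 11.0% ± 0.697. Of the ligands, GAS6 made up 20.9% ± 3.40 of the summed FPKM in RD Scramble and 12.1% ± 1.23 in RD KDM3A-sh2 (difference -8.77 percentage points, exact permutation test, p = 0.1). In Rh30 the GAS6 share was 10.5% ± 0.728 and 8.41% ± 3.50 (difference -2.11 points, exact permutation test, p = 0.5). Without Rh30 KDM3A-sh2 replicate 1 that difference was -0.204 points (p = 0.9), and without replicate 3 of the same group it was -3.64 points (p = 0.1, exact permutation tests). Receptor FPKM exceeded ligand FPKM in all 12 libraries. The ratio was 15.5 ± 0.617 and 13.5 ± 0.928 in RD and 41.8 ± 5.37 and 27.3 ± 2.02 in Rh30, Scramble first.

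**Figure D3:**
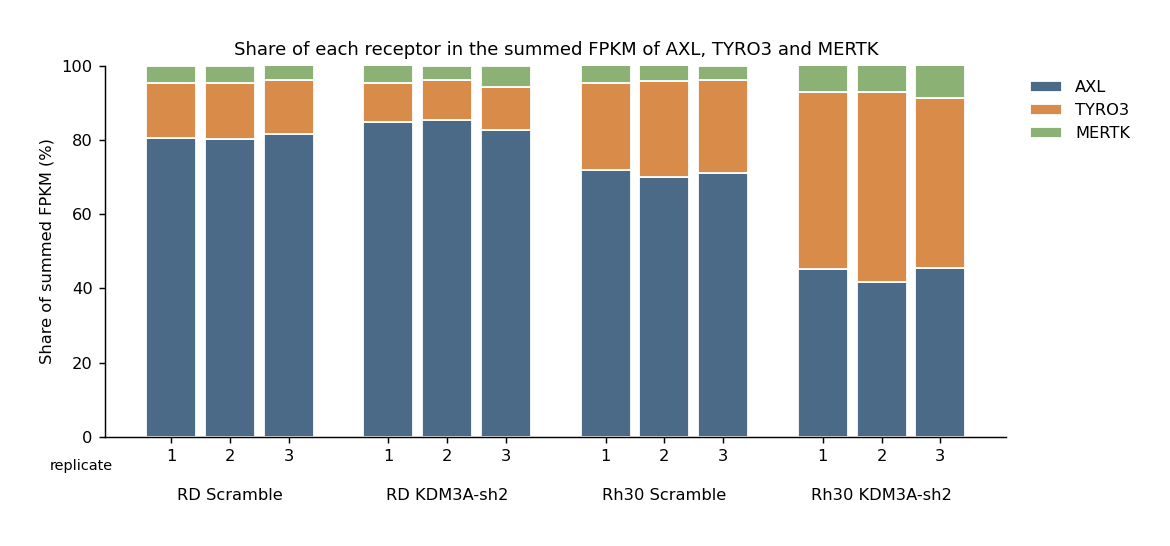
Share (%) of AXL, TYRO3 and MERTK in their summed FPKM, with 1 stacked bar for each of the 12 libraries, grouped by line and shRNA. The AXL part runs from 80.1% to 85.4% in RD, from 70.0% to 71.8% in Rh30 Scramble and from 41.6% to 45.5% in Rh30 KDM3A-sh2.

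The genes around the receptors and ligands were followed through 7 lists with 92 genes, of which 81 passed the filter in RD and 82 in Rh30. In RD 26 of 81 (32.1%) were higher and 16 (19.8%) lower with KDM3A-sh2, where 21.6% and 19.5% of all genes were, with a median log2 fold change of 0.023 against 0.0067 over all genes. In Rh30 8 of 82 (9.76%) were higher and 28 (34.1%) lower, where 15.3% and 13.2% of all genes were, with a median of -0.078 against 0.031 over all genes. These shares are also the background for the counts of the single lists. All genes were not matched to the listed genes by expression level, and a share called can depend on level. The lists were chosen with earlier results of these data known.

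Of 5 genes of the vitamin K cycle and ligand maturation, 2 were higher and 1 lower in RD (21.6% and 19.5% of all genes), and 1 was higher and 1 lower in Rh30 (15.3% and 13.2% of all genes). GGCX, the carboxylase that makes the phosphatidylserine-binding residues of GAS6 and PROS1, was lower in RD (103 and 83.1 FPKM, log2 fold change -0.30, adjusted p = 0.00458) and in Rh30 (52.5 and 38.9 FPKM, log2 fold change -0.43, adjusted p = 0.00726). FURIN, a proprotein convertase, was higher in both lines (log2 fold changes 0.94 and 0.65). CALU, a calcium-binding protein that inhibits the carboxylase, was higher in RD (0.43) and at -0.11 in Rh30 (adjusted p = 0.069). Of the 5 further ligands and ligand-binding proteins, TUB and LGALS3 passed the filter. TUB, a tubby protein described as a MERTK ligand, was lower in RD (from 8.03 to 4.43 FPKM, log2 fold change -0.73) and not called in Rh30 (0.091, adjusted p = 0.25), and its change differed between the lines (0.82, adjusted p = 2.83e-05). LGALS3, galectin-3, was higher in RD (0.45) and stood at 2.98 and 3.33 FPKM in Rh30, where it was not called.

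Of the genes for phosphatidylserine exposure, 1 of 8 was higher and 3 lower in RD, and none was higher and 4 of 7 lower in Rh30, with 2 lower in both lines. TMEM30A, the subunit that flippases need to leave the endoplasmic reticulum, was lower in RD (-0.48) and further down in Rh30 (-1.09), and the changes differed (-0.61, adjusted p = 0.0072). Of 16 other phosphatidylserine receptors and bridging proteins, 8 were tested in RD, with 4 higher and 3 lower, and 10 in Rh30, with none higher and 6 lower. CD36, a scavenger receptor, was higher in RD (25.8 and 54.4 FPKM, log2 fold change 1.04) and under 0.3 FPKM on average in Rh30. MFGE8, a bridging protein between phosphatidylserine and integrins, was higher in RD (0.57) and at 0.13 in Rh30 (adjusted p = 0.127). THBS1, thrombospondin-1, and ITGB3, an integrin beta chain, were lower in Rh30 by more than in RD (THBS1 -1.12 and -0.16, ITGB3 -1.10 and -0.16, with differences of -0.95 and -0.94, adjusted p = 1.29e-05 and 2.61e-06).

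In the list of receptor shedding and turnover, 7 of 11 genes were higher and none lower in RD, and 2 were higher and 3 lower in Rh30. None was called in the same direction in both lines, and 2 were called in opposite directions. ADAM10, a metalloprotease that cleaves AXL from the cell surface, was higher in RD (74.5 and 83.9 FPKM, log2 fold change 0.17, adjusted p = 0.012) and lower in Rh30 (295 to 309 and 228 to 245 FPKM, -0.36, adjusted p = 0.00141). TIMP3, an inhibitor of these proteases, went the same way, with 0.36 in RD and -0.30 in Rh30. NCSTN, a gamma-secretase subunit, was higher in RD (0.53) and at -0.069 in Rh30, and PSEN2, a catalytic presenilin, was higher in Rh30 (0.52) and at 0.31 in RD (adjusted p = 0.0561).

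Among 34 adaptors and effectors of TAM signalling, 11 were higher and 3 lower in RD, where 21.6% and 19.5% of all genes were, and 2 were higher and 9 lower in Rh30, where 15.3% and 13.2% were. Of these, 3 were lower in both lines, 1 was higher in both and 1 was called in opposite directions. SOCS3, a feedback inhibitor of cytokine signalling, was lower in RD (-0.61) and Rh30 (-0.75), and PIK3R3, a regulatory subunit of PI 3-kinase, was lower in both as well (-0.59 and -0.60). SOCS1, a related feedback inhibitor, was higher in Rh30 (2.36 and 5.78 FPKM, log2 fold change 1.03, adjusted p = 0.00491) and not called in RD (-0.059), with a difference of 1.09 (adjusted p = 0.00216).

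Of 13 transcription factors described at the AXL promoter, none was higher and 5 were lower in RD, and 3 were higher and 5 lower in Rh30, with 3 lower in both lines. ETS1 was lower in RD (74.8 and 31.9 FPKM, log2 fold change -1.20, adjusted p = 1.24e-05) and in Rh30 (119 and 66.2 FPKM, -0.83, adjusted p = 5.41e-05). FOSL1, an AP-1 subunit, was lower in RD (135 and 98.1 FPKM, -0.45, adjusted p = 0.00196) and fell further in Rh30 (10.9 and 3.97 FPKM, -1.26, adjusted p = 0.000405), with a difference of -0.81 between the lines (adjusted p = 0.000652). The part of these factors in the AXL levels was not tested.

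**Figure D4:**
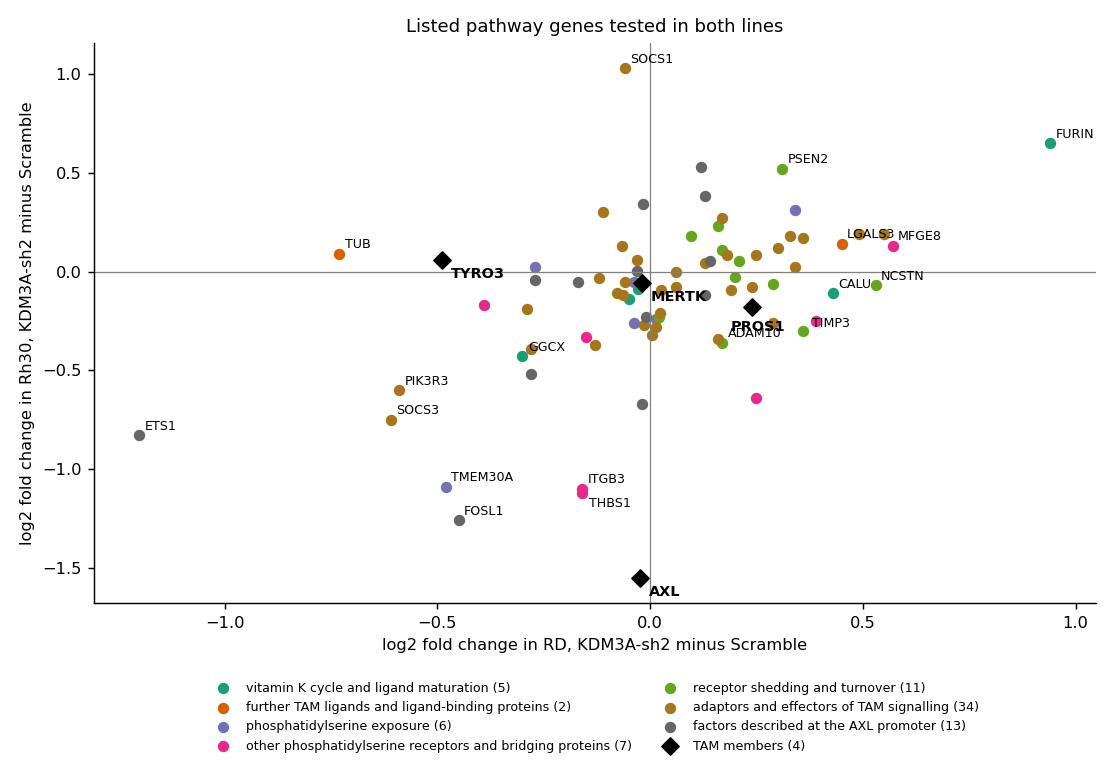
Log2 fold change (KDM3A-sh2 minus Scramble) in RD on the horizontal axis and in Rh30 on the vertical axis for 78 of the listed genes tested in both lines, coloured by list, with 1 such gene left out, and for 4 members as black diamonds. AXL sits at -0.024 and -1.55, below every listed gene, and TYRO3 at -0.49 and 0.059.

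Genes next to AXL on chromosome 19 had smaller log2 fold changes in Rh30 than AXL, from -0.78 to -0.14. HNRNPUL1, which starts 730 bases after AXL, was lower in RD (333 and 239 FPKM, log2 fold change -0.48, adjusted p = 6.65e-05) and at -0.14 in Rh30 (adjusted p = 0.0885). TGFB1, 39821 bases away, was at -0.11 in RD (adjusted p = 0.196) and lower in Rh30 by a smaller amount than AXL (-0.24, adjusted p = 0.0181). EGLN2, 410770 bases away on the other side, was lower in RD (-0.40, adjusted p = 0.0014) and at -0.20 in Rh30 (adjusted p = 0.0591). RPL36P16, a ribosomal protein pseudogene, was at -0.19 and -0.78 with overlapping groups and was called in neither line. None of the tested neighbours of TYRO3 was called in either line, among them RPAP1 (0.095 in RD and 0.0097 in Rh30) and MGA (-0.23 and -0.032). Next to MERTK, TMEM87B was higher in RD (0.98) and ANAPC1 lower (-0.20), and neither was called in Rh30. The nearest tested genes to GAS6 lay 62447 to 265959 bases away. Of these, TMCO3 (-0.20 in RD and -0.17 in Rh30) and RASA3 (-0.27 and -0.29) were lower in both lines, LINC00565 was higher in RD (0.64), and TFDP1 was not called. EPHA3, 4390899 bases from PROS1, was higher in both lines (1.14 and 0.59).

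The genes whose pattern over the 12 libraries was nearest to that of AXL were found among the 11017 genes that averaged 10 FPKM or more, by the root mean square difference of centred log2(FPKM + 1). They were CYR61 (0.153), FRMD6 (0.155), ANKRD1 (0.164), SERPING1 (0.187) and VCAN (0.202), where the median gene lay 0.886 away and the spread of AXL itself was 0.855. CYR61, a secreted matricellular protein, averaged 177, 187, 118 and 34.1 FPKM in RD Scramble, RD KDM3A-sh2, Rh30 Scramble and Rh30 KDM3A-sh2. ANKRD1, an ankyrin repeat protein of muscle, averaged 33.6, 33.0, 25.6 and 5.96 FPKM in the same order. FRMD6 was at 51.7, 58.2, 34.2 and 13.6 FPKM, SERPING1, the C1 inhibitor of complement, at 47.9, 50.4, 34.4 and 14.6 FPKM, and VCAN, the matrix proteoglycan versican, at 111, 92.7, 61.8 and 28.5 FPKM. The nearest patterns to TYRO3 were those of RHNO1 (0.046; 68.3, 49.8, 91.2 and 92.9 FPKM) and ITPRIPL1 (0.056). SDCBP (0.0939) and GLG1 (0.0958) were nearest to PROS1, and TECPR1 (0.101) and SIPA1L3 (0.102) to MERTK. The spread of TYRO3 itself was 0.363, that of PROS1 0.763 and that of MERTK 0.227. The median gene lay 0.48, 0.79 and 0.387 away from them. Each distance is to be read against the spread of its own member, which was smallest for MERTK. No genes were sought for GAS6, which was below the filter of the fit over 12 libraries. All libraries of a line share its cells and medium, so that these distances describe 4 groups rather than 12 independent samples.

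**Figure D5:**
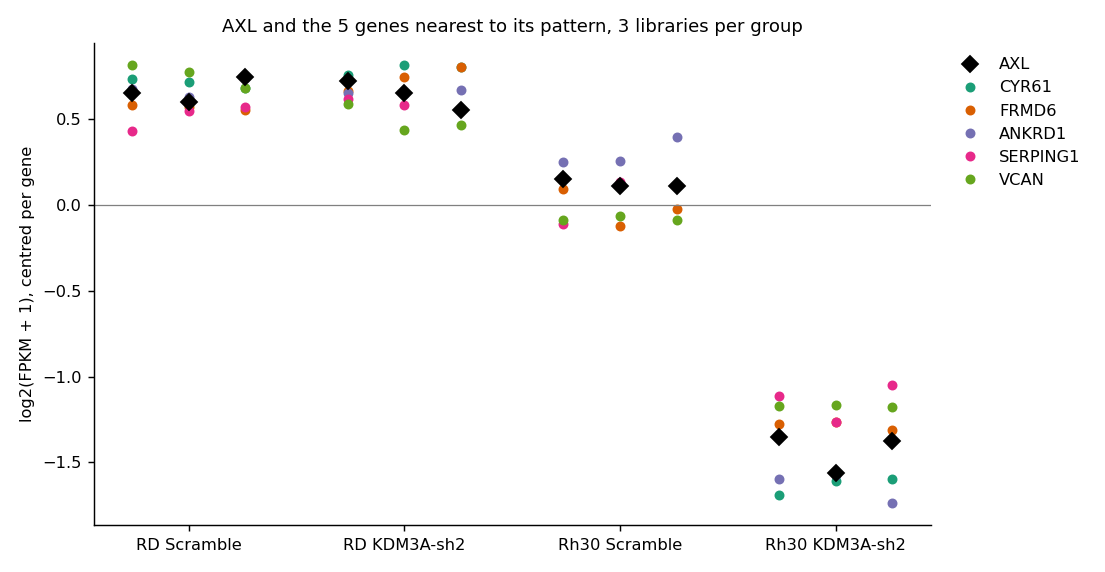
Centred log2(FPKM + 1) of AXL (black diamonds) and of the 5 nearest genes (coloured circles), drawn per library for the 4 groups. The Rh30 KDM3A-sh2 libraries lie below all other libraries for each of the 6 genes, and the RD groups of AXL overlap. The 5 genes were chosen for nearness to AXL over these same libraries, so the shared low group follows from that choice.

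The 3′ UTR word TGAAGC is shown for AXL. Genes lower with KDM3A-sh2 held it, and the longer word TGAAGCA, more often than all genes. Those genes were called lower in the same libraries, so the shares are no independent reason to show the AXL site. TGAAGCA was present in the longest annotated 3′ UTR of 31.9% of 1882 genes lower in Rh30 and 26.6% of 2628 lower in RD, against 19.5% of 11336 genes tested in both lines, and TGAAGC in 54.7%, 47.9% and 42.1%. Lower genes can also differ in the length of the 3′ UTR, which was not accounted for in these shares. No share was computed for genes called higher, so the shares do not show whether the difference is particular to lower genes. TGAAGCA was in 2.63% of genes with a 3′ UTR of like length to that of GAS6 (306 bases). It was in 45.6% of those with a 3′ UTR of like length to that of TYRO3 (5310 bases). The AXL 3′ UTR (1862 bases in GENCODE 29) holds TGAAGC 1 time, at base 231, and TGAAGCA not at all. Capitals mark the word.
AXL 3′ UTR site: attgcaatatcTGAAGCcctcccaggtg
Of 2084 genes with a 3′ UTR of like length, 42.1% hold TGAAGC. MERTK and PROS1 each hold 1 TGAAGCA site, TYRO3 holds TGAAGC 2 times within 5310 bases without the longer word, and GAS6 holds neither. The part of this word in the fall of AXL or TYRO3 was not tested.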

How the data were processed

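Poly(A) RNA of RD and Rh30 cells was sequenced as directional single-end libraries. Per the labels and the study's methods, the authors aligned reads to GRCh38 with GSNAP, used SAMtools, and computed FPKM with Cufflinks. Whether strand was used in quantification and which gene annotation was used are not given in the sources used here. The deposited table held 66095 entries of FPKM, of which 120 repeats were left out. A placeholder value of 999999999, found in 17 entries, was treated as missing. FPKM gives no counts, so read depth and counting error are unknown, and no count model was used. The study's methods tested FPKM by ANOVA.

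Samples were grouped by the line and shRNA in their titles. The sources do not say whether libraries came from separate cultures, so p-values measure only the spread between these libraries, which may be technical. The names of the Rh30 Scramble libraries end in the same number, unlike those of the other groups. Values were tested as log2(FPKM + 1) with limma 3.58.1 (R 4.3.3, trended variance, two-sided), for genes that averaged 1 FPKM or more over the libraries compared, with Benjamini-Hochberg adjustment over all genes and a threshold of 0.05. Fold changes on this scale understate changes of low genes. Shares were compared by exact permutation tests. Scripts were tested on simulated data. Alternatives covered the pseudocount, the filter, scaling, trend, ANOVA, a fit over all 12 libraries, a replicate block and leaving out each library.

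The members and the gene lists were chosen with earlier results of these data known. Named genes were the members and listed genes that carry a member's name, KDM3A, the 2 called genes with the largest change per list and line, the 2 nearest tested genes on each side of a member, and the 5 genes (AXL) or 2 genes (others) nearest in pattern. Genes outside this rule were named from the marker lists. A few genes that this rule or the lists would name are not reported here. Positions, gene types and 3′ UTRs came from GENCODE 29, which holds 86.27% of the identifiers, and promoter windows from RefSeq (GRCh38.p14), matched for all 5 members. UTRs of at least 50 bases were used, and like length meant 0.8 to 1.25 times.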

Additional observations from a re-analysis of the deposited data

Results flagged for a closer look

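Of the members tested in both lines, 3 changed differently with KDM3A-sh2 in Rh30 and RD by the interaction term of limma (adjusted p over all genes). The change in Rh30 minus the change in RD was -1.53 for AXL (adjusted p = 1.2e-06), 0.55 for TYRO3 (adjusted p = 0.000242) and -0.41 for PROS1 (adjusted p = 0.0372). In Rh30, AXL was lower in 3 of 3 knockdown libraries than in any control, and in RD the groups overlapped. For TYRO3 this was so in RD, where 3 of 3 knockdown libraries lay below the controls. KDM3A itself differed as well, by 0.37 (adjusted p = 0.0388), with the larger fall in RD, and this call held in 8 of 20 alternatives (adjusted p 0.023 to 0.0897).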

How the results depend on the processing

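The lower AXL in Rh30 kept its direction and call in 15 of 15 alternatives (log2 fold changes -1.59 to -1.49), as did the lower TYRO3 in RD (-0.51 to -0.45), the AXL and TYRO3 differences between the lines in 20 of 20 (-1.57 to -1.46 and 0.49 to 0.58), and each member difference between the Scramble groups wherever a value could be computed. Scaling all libraries to the same sum (the TPM scale) moved the median log2 difference of all genes between the Scramble groups from -0.039 to -0.13. The cause of the following changes was not tested. GAS6 in RD lost its call without a filter (-0.40, adjusted p = 0.0654), at the TPM scale (-0.35, 0.0555), with median centring (-0.39, 0.0551), and in each analysis that left out 1 library (-0.46 to -0.32). PROS1 in RD lost it without a filter (0.24, adjusted p = 0.0805), with ANOVA (0.24, 0.0511), and in the fit over 12 libraries (0.24, 0.0606). With 1 library left out its values ran from 0.21 to 0.29, and the call held only without RD Scramble replicate 3 (0.29, adjusted p = 0.0369). The PROS1 difference between the lines lost it with a pseudocount of 0.1 (-0.51, adjusted p = 0.0535), without a filter (-0.41, 0.0684), and in 9 of 12 analyses with 1 library left out (-0.48 to -0.36, adjusted p 0.0218 to 0.0826, held without RD Scramble replicate 3, Rh30 Scramble replicate 2 or Rh30 KDM3A-sh2 replicate 1). Values near 0 changed sign without passing the threshold: AXL in RD at the TPM scale (0.0094) and with 1 library left out (-0.063 to 0.021), MERTK in RD at the TPM scale (0.011) and with 1 library left out (-0.11 to 0.10), and, with 1 library left out, MERTK in Rh30 (-0.15 to 0.015) and its difference between the lines (-0.16 to 0.055). Genes called in Rh30 numbered 5066, and 3215 to 4071 with 1 library left out, the fewest without Rh30 KDM3A-sh2 replicate 1.

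Same-numbered libraries did not deviate together from their group means (correlations -0.089, -0.05 and -0.079 in RD and -0.091, -0.247 and -0.193 in Rh30). With so few libraries per group, this check cannot show whether equal numbers mark a shared culture or batch. The highest correlations were between libraries of unlike number. In Rh30 they were 0.175 (Scramble 2 with KDM3A-sh2 3) and 0.190 (Scramble 3 with KDM3A-sh2 2). The replicate block joins equal numbers and does not model such pairs. With the replicate block, 6259 genes were called in RD instead of 7390 and 3421 in Rh30 instead of 5066, and GAS6 (-0.40, adjusted p = 0.0808) and PROS1 (0.24, adjusted p = 0.0669) in RD were not called. No other member call changed with the block. Under the 10 FPKM filter MERTK, GAS6 and PROS1 gave no value, and GAS6 gave none between the Scramble groups when an RD library was left out. The read depth behind each value is unknown.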
